A study of Mus musculus with 60 samples.

Results

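The genes described here are the cytochrome P450 genes, 99 of the 54838 gene rows of a count table of mouse tissues. They were chosen by name alone, as every symbol made of Cyp, a family number, a subfamily letter and a member number; pseudogene symbols and the sterol demethylase gene Cyp51 fall outside that pattern. The 99 genes belong to 39 subfamilies. Of these, 91 had more than 3 reads in at least 1 of the 42 tissue libraries and 6 had none in any (Cyp11b2, Cyp26c1, Cyp2j7, Cyp2w1, Cyp4a30b and Cyp4f40). Cyp11b1 and Cyp4f37 stayed at or under 3 reads.

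The study tested whether a gene fusion of CD74 and NRG1 drives tumours in mice. All tissue libraries came from mice of 1 line, Rosa26CD74-NRG1/Flp, in which a stop cassette before the fusion gene at the Rosa26 locus is removed by a deleter allele of the Flp recombinase in the early embryo, so the fusion is meant to be expressed in nearly every tissue. By their labels the normal tissues carry the fusion as well, and no wild-type tissue was compared here. The 4 libraries labelled M00246 (liver, spleen, muscle and lung) go against this in their Nrg1 counts, at 0.675 to 5.36 CPM against 8.16 to 111 CPM in all other libraries. How far Nrg1 counts stem from the fusion was not tested, and values without M00246 and M00247 together are given beside the counts of called genes. The labels give no treatment. Ages and sexes of the mice are not taken from the labels here, and only levels of sex-linked genes are used. The groups were 8 normal livers, 3 liver tumours, 7 normal lungs, 6 normal spleens, 6 normal muscles, 2 normal brains and 1 normal kidney, with 7 sarcomas from 6 mice and 2 intestine tumours from 1 mouse. The mice are named by their numbers in the labels (M00235 to M00249). Liver tumours came from M00236, M00248 and M00249, and the first 2 of these mice also gave a normal liver. The libraries count sequence tags from the 3′ ends of transcripts in RNA of frozen sections, so a level does not depend on transcript length, and it is given here as counts per 1000000 counts of the library (CPM). Libraries held 4837440 to 10089572 counts, and 3 counts, the floor used here for a gene that was not detected, corresponded to 0.297 to 0.62 CPM. Sections hold every cell type of the tissue, so fewer hepatocytes and less P450 RNA per hepatocyte cannot be told apart.

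Cytochrome P450 enzymes carry a haem group and insert an oxygen atom into small lipophilic molecules, with electrons passed on by P450 oxidoreductase or, in mitochondria, by ferredoxin. The families numbered 1 to 3 mostly oxidise drugs, pollutants and steroids and are concentrated in hepatocytes; family 4 oxidises fatty acids; the families with higher numbers mostly have a single task in the making or breaking of bile acids, retinoic acid, vitamin D or steroid hormones. In liver, many P450 genes are read in hepatocytes around the central vein, others in those around the portal vein, and in mice several subfamilies differ between the sexes under the control of growth hormone pulses. HNF4A, a nuclear receptor of hepatocytes, is a known activator of many of them.

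Promoter sequences, 250 bases before to 50 after the gene start, were found for 76 of the 99 genes in RefSeq (build GRCm38.p6), 86 promoters in all. A short element bound by HNF4A, CAAAGTCCA, was present on either strand in 11 of these 86 promoters (12.8%), against 0.475% of all 32851 promoters of that length. The windows below show it in capitals, on the strand of the gene, for members whose levels are described later: Cyp8b1 and Cyp3a11, which behaved differently in the liver tumours, the neighbouring Cyp2c genes that differed among themselves, and Cyp3a41a, which was high in a single normal liver.
Cyp8b1, chr9:121916354-121916383, minus strand: gagcctctgagCAAAGTCCAagggcaggaa
Cyp3a11, chr5:145879945-145879974, minus strand: gaagagagtacCAAAGTCCAgtgatgcaaa
Cyp3a41a, chr5:145720213-145720242, minus strand: aaagagacgacCAAAGTCCAggtgatgcag
Cyp2c67, chr19:39649149-39649178, minus strand: tatcattgagaCAAAGTCCAtttggaagca
Cyp2c68, chr19:39741160-39741189, minus strand: tatcattgaaaCAAAGTCCAattggaagag
Cyp2c69, chr19:39886826-39886855, minus strand: tatcattgagaCAAAGTCCAtttggaagag
Cyp2c70, chr19:40187332-40187361, minus strand: gaggtcaaactCAAAGTCCAaactctgtgt
In all of these the element lay upstream of the gene start, and Cyp2c40, Cyp2c65, Cyp3a16 and Cyp3a41b held it too. Neighbouring genes of a cluster are copies of each other, so these matches are not separate events, and a match is a description of letters, not of binding.

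The element was 1 of 12 that were searched on both strands, and it was chosen for display after the search. The box TATAAA was in 39.5% of the P450 promoters and 13.6% of all promoters, the FOXA element TGTTTAC in 11.6% and 3.65%, the glucocorticoid element ACANNNTGT in 15.1% and 6.85%, and the C/EBP element TTGCNCAA in 6.98% and 2.94%. CAAAGGTCA, which shares its first letters with the HNF4A element, was in 4.65% and 0.478%. The xenobiotic response core GCGTG was less frequent in the P450 promoters (19.8%) than in all (32.4%), as was the STAT5 element TTCNNNGAA (5.81% and 8.3%). No P450 promoter window held TTATGTAA, which 0.938% of all promoters hold, a longer HNF1 element, or the longer direct repeats known for PPAR and for the xenobiotic receptors, where the shares of all promoters were at most 0.0609% for these 3 longer elements.

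P450 transcripts made up 0.736% to 1.52% of all counts in the 8 normal livers. The members were very unequal: 50 had a mean of at least 5 CPM in normal liver and 30 a mean of at least 100 CPM. By subfamily, the 15 Cyp2c genes together held 32.7% of the P450 counts of normal liver, the single Cyp2e gene 15.8%, the 8 Cyp2d genes 11.6%, and the 9 Cyp3a genes 6%. The single most abundant member was Cyp2e1, the ethanol and acetaminophen oxidase of pericentral hepatocytes, with a lowest value of 685, a median of 1738 and a highest value of 2833 CPM over the 8 livers. Cyp2c29, an arachidonic acid epoxygenase, followed with a lowest value of 411, a median of 1439 and a highest value of 2678 CPM. Cyp2e1 and Cyp2c29 overlapped between livers and their order differed from liver to liver. The next members by mean were Cyp2c50 (561 ± 244.7 CPM (SD, n = 8)), Cyp2f2 (538 ± 199 CPM (SD, n = 8)), Cyp2j5 (511 ± 101 CPM (SD, n = 8)), Cyp2d9 (499 ± 315 CPM (SD, n = 8)) and Cyp2c70 (492 ± 255 CPM (SD, n = 8)). Cyp1a2, which oxidises caffeine and aromatic amines, had 428 ± 148 CPM (SD, n = 8), Cyp2d26 389 ± 93.4 CPM (SD, n = 8) and Cyp2a5, the coumarin hydroxylase, 332 ± 266 CPM (SD, n = 8). These 8 means lie within the SD of their neighbours in the order. The 3 liver markers among the members were high in the tissue labelled liver: Cyp8b1 was at 29.6 to 198 CPM, Cyp2c29 at 411 to 2678 CPM and Cyp3a11 at 17.8 to 444 CPM in normal liver, and their highest values in any library other than liver and liver tumour were 2.27, 12.4 and 5.99 CPM.

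**Figure D1:**
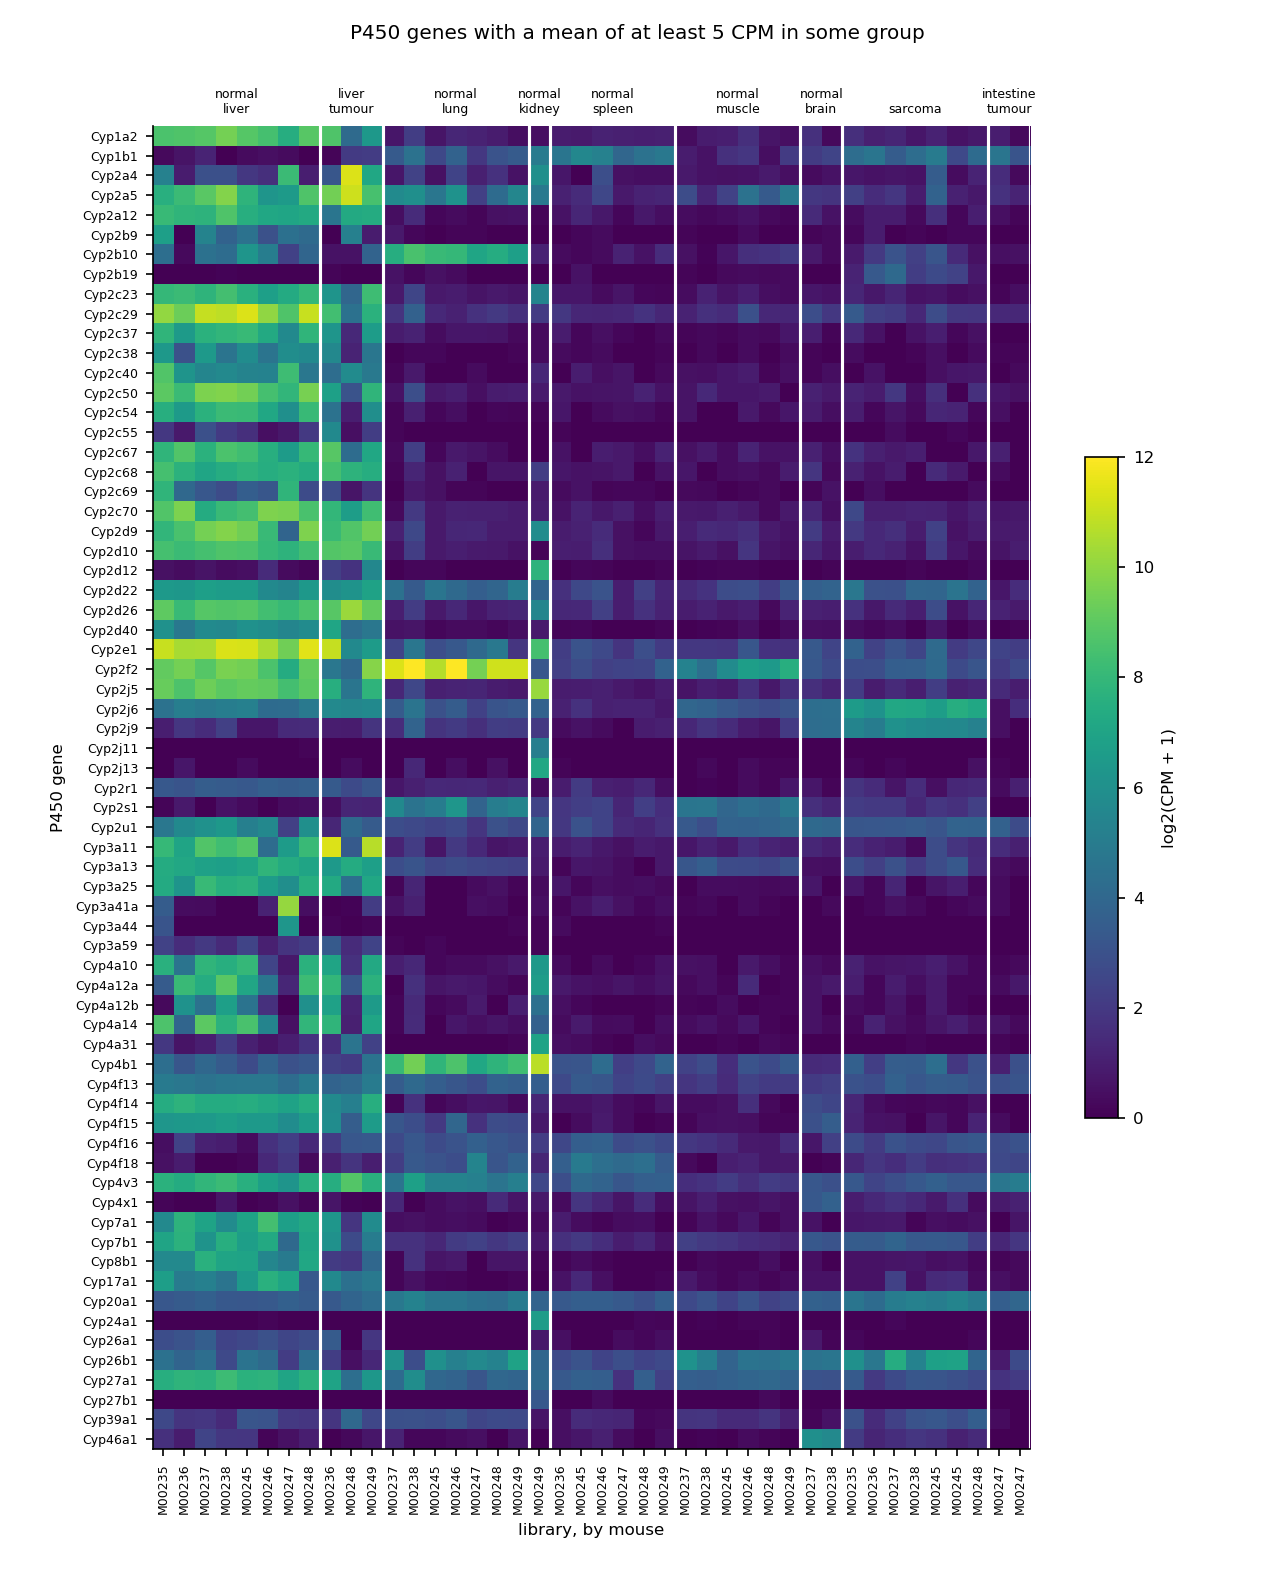
Heat map of log2(CPM + 1) for the 67 P450 genes with a mean of at least 5 CPM in some group (rows, by family) in the 42 tissue libraries (columns, by group and mouse). Liver and liver tumour columns hold most of the signal; lung stands out for Cyp2f2, Cyp4b1 and Cyp2b10, kidney for Cyp4b1, Cyp2j5 and Cyp24a1, and brain for Cyp46a1.

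The genes of endogenous pathways were lower in normal liver than the leading xenobiotic enzymes. In bile acid synthesis, Cyp7a1, the rate-limiting enzyme of the classical route, had a lowest value of 49.4, a median of 122 and a highest value of 338 CPM. Cyp8b1, which makes the 12-hydroxylated bile acids, had a lowest value of 29.6, a median of 86.4 and a highest value of 198 CPM, and Cyp27a1, the mitochondrial sterol 27-hydroxylase, a lowest value of 126, a median of 206 and a highest value of 294 CPM. Cyp7b1, the oxysterol 7-hydroxylase of the alternative route, had a lowest value of 16.3, a median of 127 and a highest value of 209 CPM, and Cyp39a1, which hydroxylates 24-hydroxycholesterol, was low at 1.73 to 8.04 CPM. Of these 5, Cyp27a1 varied least between livers and Cyp7a1 and Cyp7b1 spread over the widest ranges. Retinoic acid is broken down by the Cyp26 enzymes: Cyp26b1 was at 3.32 to 22.8 CPM and Cyp26a1 at 4.39 to 11.2 CPM, while Cyp26c1 had no reads. In vitamin D metabolism the 25-hydroxylase Cyp2r1 was steady at 7.54 to 11.3 CPM, whereas Cyp27b1 had no reads in any normal liver and Cyp24a1 at most 0.135 CPM. Of the steroid hormone enzymes, Cyp17a1 was present at 8.81 to 196 CPM, and Cyp21a1, Cyp11a1 and Cyp19a1 stayed at or below 2.59 CPM.

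The 8 normal livers differed widely in several P450 genes that are known to differ between the sexes in mouse liver, and the liver of M00247 stood apart. Cyp3a41a was at 1115 CPM in that liver, at 10.3 in the liver of M00235 and at 0 to 1.22 in the other 6. Cyp2a4, a steroid 15-hydroxylase, was at 289.8 CPM in M00247, 37.2 in M00235 and 0.901 to 6.58 in the others. Cyp3a44 was at 76.8 and 7.67 CPM in the same pair and at 0 in the other 6. All 3 genes are known as higher in female than in male mouse liver. The opposite held for Cyp2d9, a steroid 16-hydroxylase known as higher in males: 13.6 CPM in M00247 against 235.4 to 869 in the other 7 livers. Cyp4a12a, a fatty acid hydroxylase also known as higher in males, was at 1.44 CPM in M00247, 10.07 in M00235, 25.1 in M00246 and 138 to 483 in the other 5.

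Beside these values, Xist, the RNA of the inactive X chromosome, was at 125 CPM in the liver of M00247 and at most 0.612 CPM in the other 7, and the Y-linked Ddx3y was at 0.866 CPM in M00247 and 69.1 to 99.5 in the other 7. The liver of M00235 thus had a Y-linked level like the others, and yet shared the high side of M00247 for Cyp2c69 (229.9 and 231 CPM, against 5.71 to 15.4 in the other 6) and for Cyp2c40 (420.4 and 313 CPM, against 26.3 to 74.1). Cyp2c40 and Cyp2c69 both share part of their 3′ ends with Cyp2c67, so their values may not be separate. The Cyp2b9 level of M00235, 110.1 CPM, was the highest of all 8, above 20.5 in M00247 and 0 to 40.5 in the others. Cyp4a10 and Cyp4a14, fatty acid hydroxylases induced by the receptor PPARA, ran differently again. Cyp4a10 was at 0.722 CPM in M00247, 4.46 in M00246 and 23.2 in M00236, against 186 to 251 in the other 5. The same 3 livers had the lowest Cyp4a14, 0.433, 41.6 and 14.3 CPM, against 209.7 to 503. Cyp3a11, the main drug-oxidising enzyme of its subfamily, was lowest in M00246 at 17.8 CPM, a liver in which Nrg1 was at 0.675 CPM against 27.6 to 83.3 in the other 7. The part of sex, of the fusion or of anything else in these differences was not tested.

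**Figure D2:**
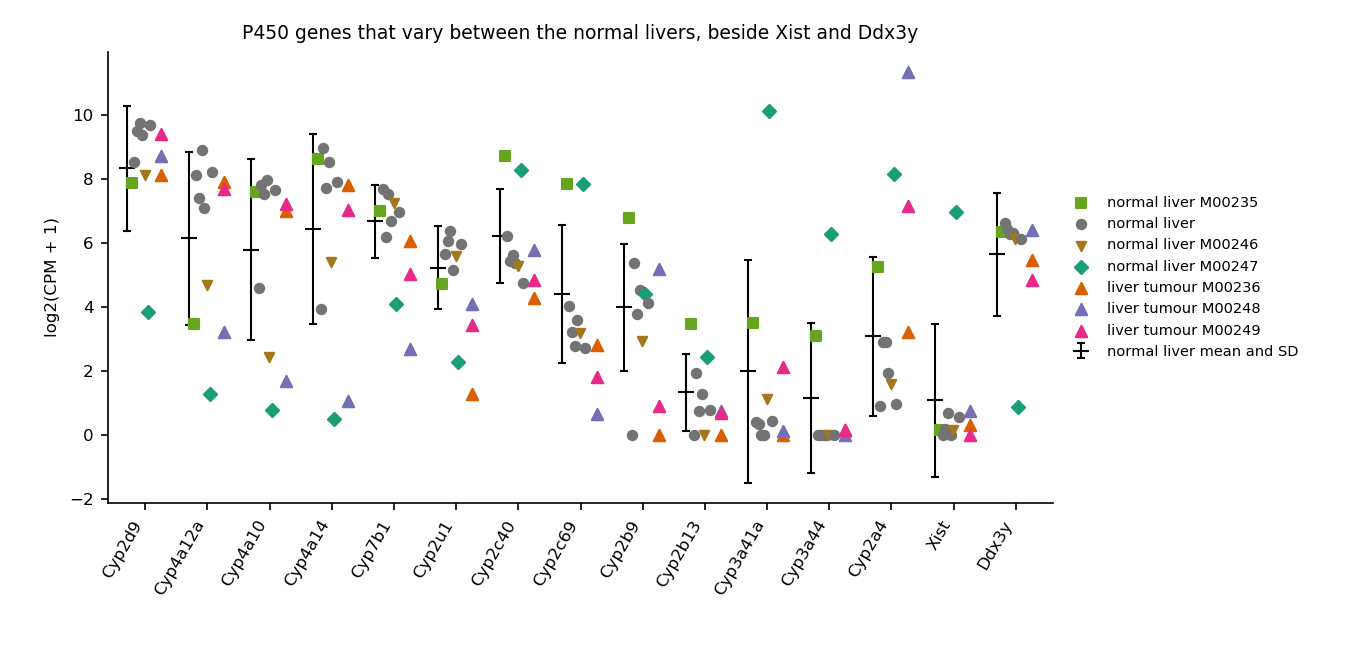
Levels, as log2(CPM + 1), of 13 P450 genes and of Xist and Ddx3y in the 8 normal livers (circles, with M00235, M00246 and M00247 marked by shape) and 3 liver tumours (triangles); bars give the mean and SD over the normal livers. The liver of M00247, the only one with Xist, is lowest for Cyp2d9 and Cyp4a12a and highest for Cyp3a41a and Cyp3a44, and the liver of M00235 lies near it for Cyp2c40 and Cyp2c69.

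Between the 3 liver tumours and the 8 normal livers, 6 P450 genes fell and 2 rose among the 65 that passed the filter on low counts (edgeR quasi-likelihood test, Benjamini-Hochberg adjusted p under 0.05 over all 13256 genes tested). Over all genes tested, 3.64% were called lower and 6.98% higher. The median log2 difference, tumour minus normal, was -0.76 over the 65 P450 genes and 0.09 over all genes tested. The genes that fell were Cyp8b1, Cyp26b1, Cyp2c29, Cyp2c54, Cyp2j5 and Cyp27a1, and those that rose were Cyp2d12 and Cyp4a31. All 8 were called by DESeq2 as well, which called 13 P450 genes lower. The share of all genes that DESeq2 called is not given here. When the mouse was kept as a block, a fit that rests on the 2 mice with both tissues and has 1 residual degree of freedom, no P450 gene and no other gene passed; 18 of the 65 had an unadjusted p under 0.05 there, against 28 without the block. Leaving out 1 library at a time gave 4 to 10 genes lower, 9 without the tumour of M00236 or the liver of M00247 and 10 without the tumour of M00249, and 1 to 3 higher; without the livers of M00246 and M00247 together 10 were lower. With the mice M00245 to M00249 alone, 2 tumours and 4 livers, 1 was lower and 0 higher. Cyp8b1, Cyp26b1, Cyp2j5 and Cyp2d12 passed without any single library.

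Cyp8b1 (ENSMUSG00000050445) had the largest fitted fall among the called genes. Without a call in this fit, Cyp3a41a (-7.09) and Cyp2c69 (-4.49) had larger fitted differences. That of Cyp3a41a rests on its high level in the normal liver of M00247, and all 3 tumours lay within the normal range. DESeq2 gave -0.74 for Cyp3a41a, without an adjusted p, and called Cyp2c69 lower (-1.77, adjusted p = 0.00523). With all tissue groups in one edgeR fit both were called lower (adjusted p = 0.0273 and 0.00379). Cyp8b1 was at 3.25 CPM in the tumour of M00236, 2.68 in that of M00248 and 14.9 in that of M00249, against 29.6 to 198 CPM over the normal livers. All 3 tumours lay below all 8 normal livers, and both tumours with a normal liver of the same mouse lay below it (49.2 and 139 CPM). The log2 difference was -4.03 ± 0.81 (SE, adjusted p = 0.00833). Cyp27a1 (ENSMUSG00000026170) was at 124 CPM in the tumour of M00236, 19.5 in that of M00248 and 80.6 in that of M00249, again all below the normal range of 126 to 294 CPM, with a log2 difference of -1.65 ± 0.46 (SE, adjusted p = 0.0381). Its adjusted p was 0.053 to 0.061 without any 1 normal liver other than that of M00247, 0.059 without the tumour of M00248 and 0.083 without that of M00249. Cyp7a1 and Cyp7b1 did not pass in this fit, but DESeq2 called both lower (adjusted p = 0.0449 and 0.0148), as did edgeR with all tissue groups in one fit (0.0274 and 0.00796). Cyp7a1 was at 79.1 CPM in the tumour of M00236, 2.58 in that of M00248 and 54.3 in that of M00249 (adjusted p = 0.179), and only the tumour of M00248 lay below all normal livers. Cyp7b1 followed the same pattern with 66.5 CPM in the tumour of M00236, 5.45 in that of M00248 and 32.2 in that of M00249 (adjusted p = 0.113). Cyp39a1, at 2.65 CPM in the tumour of M00236, 15.5 in that of M00248 and 4.81 in that of M00249, was above the normal range in the tumour of M00248 alone.

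Cyp26b1 (ENSMUSG00000063415), which clears retinoic acid, was at 3.49 CPM in the tumour of M00236, 0.396 in that of M00248 and 1.52 in that of M00249, against a lowest value of 3.32, a median of 18 and a highest value of 22.8 CPM in normal liver. The tumour of M00236 overlapped the lowest normal liver, that of M00247, and the other 2 tumours lay below all 8. The log2 difference was -3.25 ± 0.73 (SE, adjusted p = 0.0139). Cyp26a1, the other retinoic acid hydroxylase detected, was at 9.86 CPM in the tumour of M00236, 0 in that of M00248 and 2.79 in that of M00249 and did not pass (adjusted p = 0.593). The tumour of M00236 was within the normal range of 4.39 to 11.2 CPM for Cyp26a1. The other 2 tumours lay below all 8 normal livers, and that of M00248 had no reads of Cyp26a1. Cyp26b1 was at up to 174 CPM in the sarcomas. Beside its fall, 3 of 8 stellate cell and fibroblast markers were called higher in the tumours (Col1a1, Col1a2 and Col3a1) and 2 of 6 endothelial markers lower (Stab2 and Clec4g). Of all genes tested, 6.98% were called higher and 3.64% lower. The other members of both lists were not called and went both ways: Pecam1 differed by 0.68, Cdh5 by 0.66 and Lyve1 by 0.41, and Lrat by -0.94 and Dcn by -0.49 (log2). The median log2 difference was 0.74 over the stellate cell and fibroblast list and 0.004 over the endothelial list. The part of these cells in the result was not tested.

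In the Cyp2c subfamily, 13 members were tested. The edgeR test called 2 lower and 0 higher, beside 3.64% and 6.98% of all genes, and 8 had an unadjusted p under 0.05. DESeq2 called 5 lower (Cyp2c29, Cyp2c50, Cyp2c54, Cyp2c69 and Cyp2c70) and 1 higher (Cyp2c55, log2 difference 2.72, adjusted p = 0.0372). The median log2 difference was -1.85. Cyp2c29 (ENSMUSG00000003053) was at 325 CPM in the tumour of M00236, 21.6 in that of M00248 and 205 in that of M00249, against 411 to 2678 CPM in normal liver, with no overlap and a log2 difference of -3.18 ± 0.84 (SE, adjusted p = 0.03). Cyp2c54 (ENSMUSG00000067225) was at 21.8 CPM in the tumour of M00236, 0.991 in that of M00248 and 59.2 in that of M00249 and likewise below every normal liver (log2 difference -3.05 ± 0.90 (SE, adjusted p = 0.0463)). Leaving out single libraries ended both calls: adjusted p rose to 0.056 for Cyp2c29 without the tumour of M00248 and to 0.071 without that of M00249. For Cyp2c54 it rose to 0.11 without the tumour of M00236, and to 0.051 to 0.073 without any 1 normal liver other than that of M00247. Cyp2c50, a neighbour in the gene cluster, lay below all normal livers in all 3 tumours (111 CPM in the tumour of M00236, 7.53 in that of M00248 and 230.3 in that of M00249) but did not pass in edgeR (adjusted p = 0.0628; DESeq2 0.00132). Not every copy was low. Cyp2c68 was at 350.4 CPM in the tumour of M00236, 219 in that of M00248 and 176 in that of M00249, within the normal range of 130.4 to 355 CPM in each tumour. Cyp2c67 was at 469.6 CPM in the tumour of M00236, 18.1 in that of M00248 and 141 in that of M00249, above, below and within the normal range. Cyp2c55 was at 50.3 CPM in the tumour of M00236, 0.396 in that of M00248 and 3.54 in that of M00249 and above the normal range of 0.405 to 6.58 CPM in the tumour of M00236 only.

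Cyp2j5 (ENSMUSG00000052520), an arachidonic acid epoxygenase of hepatocytes and kidney tubules, was at 185 CPM in the tumour of M00236, 24.7 in that of M00248 and 225 in that of M00249. All 3 lay below the normal livers, which ran from 335 to 650.1 CPM, and the log2 difference was -2.01 ± 0.52 (SE, adjusted p = 0.028). Its paralogue Cyp2j6 went the other way in plain CPM, with 48.6 CPM in the tumour of M00236, 44.6 in that of M00248 and 50.4 in that of M00249 against 17.6 to 36.4 CPM, all 3 tumours above all 8 normal livers, but it did not pass (log2 difference 0.63 ± 0.24 (SE, adjusted p = 0.117)). Over all 65 genes, all 3 tumours lay below all 8 normal livers in plain CPM for 6 (Cyp27a1, Cyp2c29, Cyp2c50, Cyp2c54, Cyp2j5 and Cyp8b1) and above them for 2 (Cyp2d12 and Cyp2j6). Among all genes tested these shares were 2.54% below and 8.28% above.

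Cyp2d12 (ENSMUSG00000096852) rose from near the floor. It was at 0.124 to 1.76 CPM in normal liver, the highest value being that of M00246, and at 3.85 CPM in the tumour of M00236, 2.38 in that of M00248 and 46.5 in that of M00249. All 3 tumours lay above all normal livers, the tumour of M00249 far above the other 2. The log2 difference was 4.79 ± 0.77 (SE, adjusted p = 0.00242). Cyp2d12 was at 212 CPM in the kidney of M00249. The summed level of 6 kidney proximal tubule markers was 12900 CPM in that kidney and 1.39 CPM in the liver tumour of the same mouse, against 1.83 to 6.3 CPM in normal liver. Cyp4a31 (ENSMUSG00000028712) was at 1.92 CPM in the tumour of M00236, 23.2 in that of M00248 and 3.92 in that of M00249 against 0.54 to 3.37 CPM, so its rise rests on the tumour of M00248. Without that tumour the log2 difference was 0.63 (adjusted p = 0.65), and without any 1 normal liver other than that of M00238 adjusted p was 0.05 to 0.076. Of the 50-base words in the last 500 bases of the annotated transcripts, 17.3% of those of Cyp2d12 and 15.5% of those of Cyp4a31 also occur in another gene, so part of their reads could belong to a copy.

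**Figure D3:**
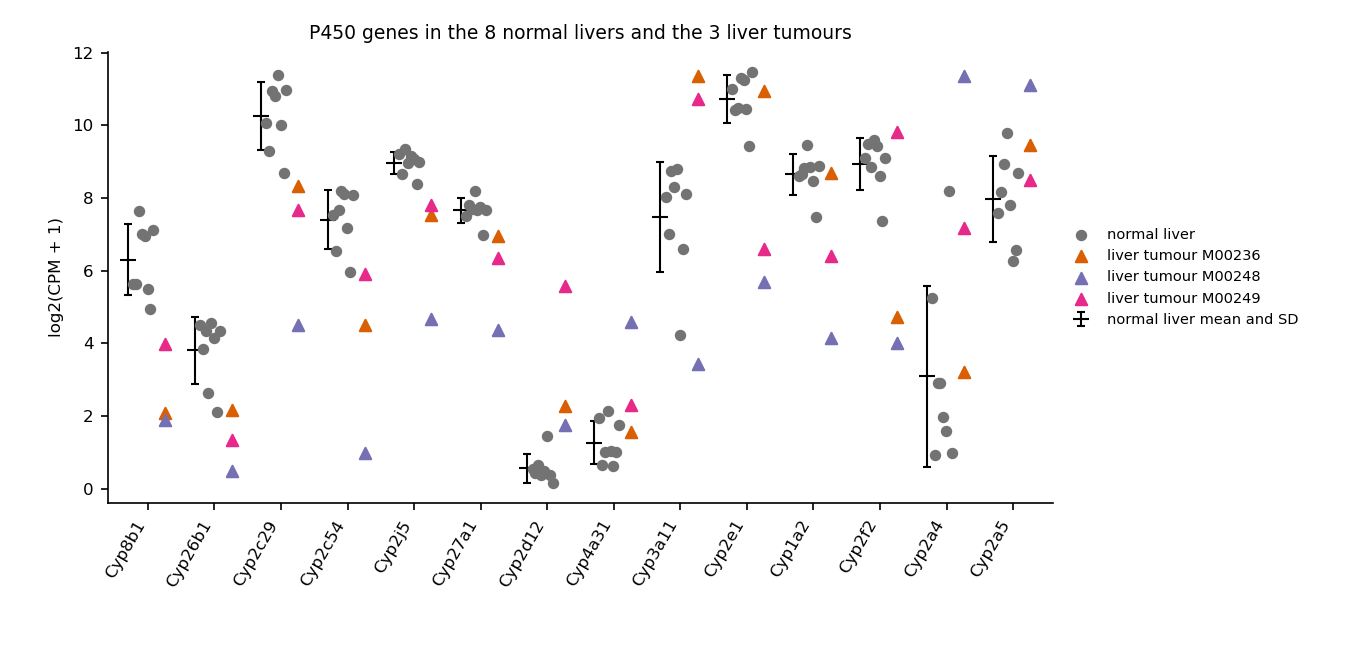
Levels, as log2(CPM + 1), of 14 P450 genes in the 8 normal livers (circles, with mean and SD beside them) and in each liver tumour (triangles, coloured by mouse). The tumours lie below the normal livers for Cyp8b1, Cyp2c29, Cyp2c54, Cyp2j5 and Cyp27a1 and above them for Cyp2d12; for Cyp3a11, Cyp2e1 and Cyp2f2 the 3 tumours lie apart from each other.

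Apart from these genes, the 3 tumours had 3 different P450 profiles. For M00236, 17 of the 65 genes lay below and 9 above all 8 normal livers, where 21.8% and 30.6% of all genes tested did. For M00248 it was 30 below and 13 above, with 16.9% and 31.6% of all genes, and for M00249 12 below and 12 above, with 10.6% and 33.5%. These counts use plain CPM, and scaling by TMM factors (which adjust for a few genes taking many reads) lowered the number above for M00249 to 7. Each is a single library with no test.

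In the tumour of M00236, several abundant enzymes were within the normal range, while Cyp2c29 and Cyp2c50 were below it. Cyp2e1 was at 1970.5 CPM and Cyp1a2 at 410.2 CPM, both within the normal ranges of 685 to 2833 CPM and 178 to 709 CPM. Cyp3a11 was at 2642 CPM, above every normal liver (17.8 to 444 CPM), and Cyp2a5 at 705 CPM within the normal range. Cyp2f2, known as a periportal enzyme in liver, was at 25.7 CPM, below every normal liver (165 to 772 CPM). Beside this, the pericentral glutamine synthetase Glul was at 3695 CPM in this tumour against 565 to 802 CPM in normal liver. The 10 pericentral markers summed to 10400 CPM (2020 to 3460 in normal liver) and the 10 periportal markers to 798 CPM (3560 to 5600). The 8 general hepatocyte markers summed to 19000 CPM, below all normal livers (33100 to 70000 CPM).

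In the tumour of M00248, Cyp2e1 was at 50.5, Cyp1a2 at 16.8 and Cyp3a11 at 9.71 CPM, each below all normal livers, and Cyp2f2 at 15.2 CPM was below them as in the tumour of M00236. Of the 13 Cyp2c genes, 11 lay below all normal livers in this tumour. Of the 4 tested Cyp2a genes, 2 lay above all normal livers and 2, Cyp2a12 and Cyp2a22, within their range. Cyp2a4 was at 2612 and Cyp2a5 at 2199 CPM, above the highest normal livers (289.8 and 885 CPM). Cyp2d26 was at 1166 and Cyp4v3 at 436 CPM, also above all normal livers. The albumin gene Alb, at 69449 CPM, was above all normal livers (12622 to 41262 CPM). The 8 general hepatocyte markers, Alb among them, summed to 89600 CPM (33100 to 70000 in normal liver). Glul was at 51.9 CPM. The pericentral markers summed to 344 CPM and the periportal markers to 1940 CPM, both below all normal livers. The 8 cholangiocyte markers summed to 1120 CPM (19.5 to 160 in normal liver), led by Spp1 at 992 CPM.

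In the tumour of M00249, Cyp2e1 was at 96.3 and Cyp1a2 at 84.1 CPM, below all normal livers, while Cyp3a11 was at 1695 and Cyp2f2 at 899.5 CPM, above all of them. Its Cyp2a4, 143 CPM, lay between the highest normal liver and the other 7. The Cyp4a and Cyp4f subfamilies were near normal, with summed levels of 581 and 318 CPM against normal means of 572 ± 379 and 280.2 ± 37.3 CPM (SD, n = 8). Pericentral markers summed to 607 CPM and periportal markers to 2870 CPM, both below all normal livers (2020 to 3460 and 3560 to 5600 CPM). Cholangiocyte markers summed to 282 CPM. The 8 general hepatocyte markers summed to 45700 CPM, within the normal range of 33100 to 70000 CPM. The 3 tumours lay on different sides of the normal livers for Cyp3a11, which did not pass as a group (log2 difference 2.38 ± 0.95 (SE, adjusted p = 0.137)), nor in DESeq2 (adjusted p = 0.146). With all tissue groups in one edgeR fit it was called higher (2.28, adjusted p = 0.0162). Without the tumour of M00248 it passed in the fit of liver alone (2.95, adjusted p = 0.028), and with the mouse as a block the estimate was -0.34. Within mice, Cyp3a11 was higher in the tumour than in the own normal liver in M00236 (2642 and 128 CPM) and lower in M00248 (9.71 and 276 CPM).

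Summed over all 99 genes, P450 counts were at 8635 to 10854 CPM in the tumours and 7361 to 15195 CPM in normal liver, so the totals overlapped. Cyp2c summed to 1793, 439.7 and 1601 CPM in the tumours of M00236, M00248 and M00249, against 2588 to 5106 CPM in normal liver, the lowest normal liver lying above all 3. Cyp2j summed to 234.7, 70.5 and 278 CPM, against 355 to 680.0 CPM. Cyp2d summed to 1400.1, 2175 and 1705 CPM, against 585 to 1863 CPM. Cyp3a ran apart with 2892, 199 and 1954 CPM, and Cyp2a with 744, 4969 and 670.5 CPM.

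**Figure D4:**
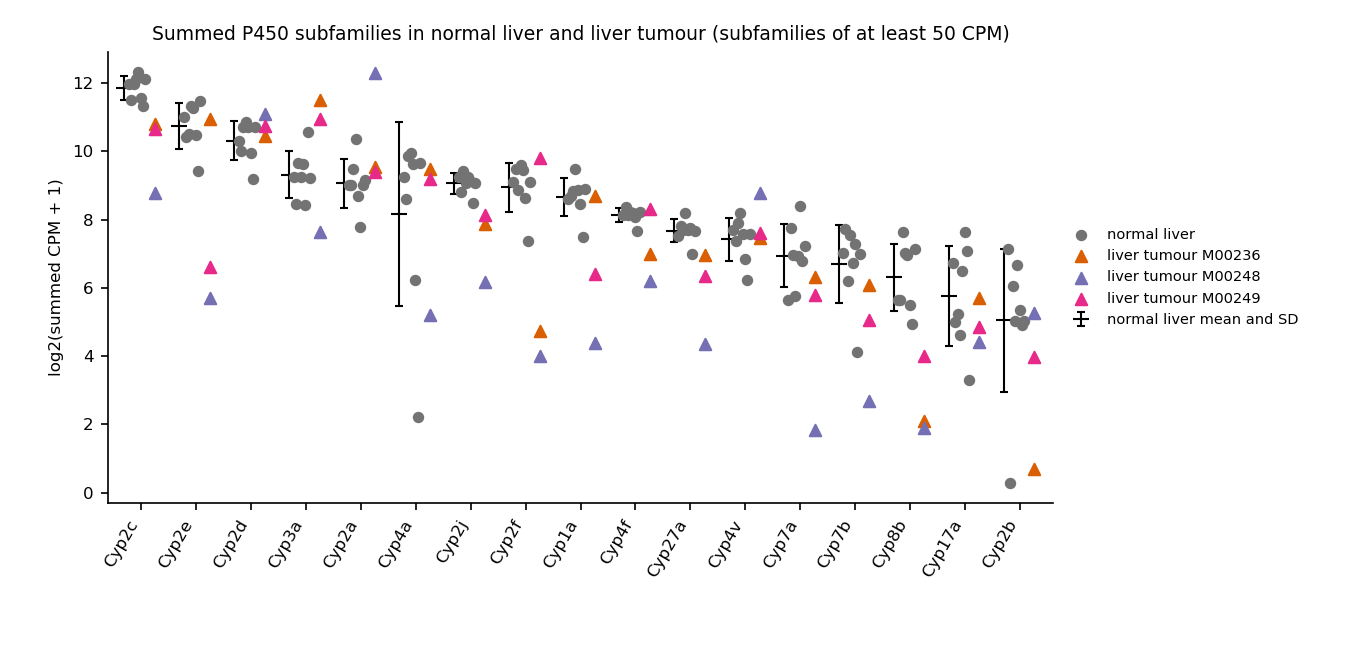
Summed level, as log2(summed CPM + 1), of the 17 P450 subfamilies with a mean of at least 50 CPM in normal liver, in the 8 normal livers (circles, with mean and SD) and the 3 liver tumours (triangles). The tumours lie below the normal livers for Cyp2c, Cyp2j, Cyp27a and Cyp8b, and both above and below them for Cyp3a and Cyp2f.

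Partners and regulators of these enzymes were examined as lists. Over all genes tested, edgeR called 3.64% lower and 6.98% higher, and the share for DESeq2 is not given here. None of 8 genes for electron donors (Por, Cyb5a and others) and none of 9 genes of haem synthesis passed in the edgeR test; 2 and 0 had an unadjusted p under 0.05, and DESeq2 called 1 and 0. The gene called by DESeq2 was Por, the oxidoreductase that feeds microsomal P450 enzymes (log2 difference -1.01, adjusted p = 0.0186). Por was at 262 CPM in the tumour of M00236, 92.1 in that of M00248 and 188 in that of M00249 against 191 to 384 CPM. Of 18 tested nuclear receptors and other regulators of P450 genes, 4 were called lower and 0 higher by edgeR, with 7 at an unadjusted p under 0.05: the bile acid receptor Nr1h4 (log2 difference -1.43 ± 0.28 (SE, adjusted p = 0.00732)), Cebpa (-0.80 ± 0.22 (SE, adjusted p = 0.0329)), Onecut1 (-1.74 ± 0.51 (SE, adjusted p = 0.0449)) and the dioxin receptor Ahr (-1.39 ± 0.37 (SE, adjusted p = 0.0315)). DESeq2 called 6 of this list, the same 4 with Rxra lower (-0.93, adjusted p = 0.0212) and Nfe2l2 higher (0.51, adjusted p = 0.0478). Hnf4a, of the same list, passed in neither tool (edgeR log2 difference -0.22 ± 0.26 (SE, adjusted p = 0.661)). The xenobiotic receptors Nr1i2 and Nr1i3 passed in neither tool; Nr1i2 was at 55.1 CPM in the tumour of M00236, 20.1 in that of M00248 and 32.4 in that of M00249 against 23.7 to 50.8 CPM, and Nr1i3 at 15.4 CPM in the tumour of M00236, 3.67 in that of M00248 and 28.4 in that of M00249 against 12.9 to 59.8 CPM. Of 13 other genes of bile acid synthesis and transport, 2 were called lower by edgeR and 4 by DESeq2 (Baat and Slco1a1 besides): the bile acid importer Slc10a1 (-3.76 ± 0.72 (SE, adjusted p = 0.00631)) and the bile acid ligase Slc27a5 (-1.75 ± 0.27 (SE, adjusted p = 0.00188)). Among 8 general hepatocyte markers 3 were called lower by edgeR (Tat, Cps1 and Serpina1c) and 5 by DESeq2, among 10 periportal markers 4 (Arg1, Pck1, Ass1 and Gls2) and 5, and among 10 pericentral markers none, where no gene had an unadjusted p under 0.05 and DESeq2 called none either.

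Between normal tissues, 73 P450 genes passed the filter among 20111 genes tested in a joint fit of liver, lung, spleen, muscle and brain. Against lung, 55 were higher in liver and 10 lower, where 25.1% and 37.2% of all genes were. Against spleen it was 61 and 7 (27.3% and 35.0% of all genes), against muscle 60 and 4 (25.7% and 29.5%) and against brain 60 and 7 (24.1% and 28.7%), with 4 lower without the brain of M00238. Without all libraries of M00246 and M00247 the counts were 52 and 7 against lung, 58 and 5 against spleen, 57 and 3 against muscle and 55 and 6 against brain. Higher in liver than in all 4 were 53 genes, and lower than in all 4 were 3 (Cyp1b1, Cyp2s1 and Cyp2t4). The share of all genes that meet this rule was not computed. Cyp2t4 was near the floor, at 0.271 to 1.49 CPM in lung, 0.647 to 2 in spleen, 0 to 0.663 in muscle and 0.512 to 1.01 in brain. The fitted differences are relative to the TMM scaling, under which the median log2 difference of all genes, liver minus the other tissue, was -0.35 for lung, -0.27 for spleen, -0.12 for muscle and 0 for brain. With library totals alone it was -1.42, -1.07, -0.42 and -0.89. Fitted folds therefore differ from ratios of CPM. The numbers of genes lower in liver with library totals alone were 15, 9, 5 and 7 against lung, spleen, muscle and brain.

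The liver genes were not at 0 elsewhere. Cyp2e1 was at 2.46 to 7.3 CPM in spleen and 2.21 to 8.29 CPM in muscle, and Alb was at 41 to 375 CPM in every library that is not liver, kidney and brain included. The lung protein Scgb1a1 was likewise at 27.4 CPM or more in all muscle libraries, against 12082 to 61264 CPM in lung. Low levels of the abundant liver P450 genes in other tissues stand beside these values, and their source was not tested.

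Lung had a P450 set of its own. Cyp2f2, which activates naphthalene and styrene and marks club cells, ran at 722 to 4436 CPM with a median of 2257, and all but the lung of M00247 were above all normal livers. The fitted log2 difference, liver minus lung, was -1.12 ± 0.40 (SE, adjusted p = 0.017), and without all libraries of M00246 and M00247 it was -0.92 (adjusted p = 0.064); with library totals alone it was -2.25. Cyp4b1, which oxidises short fatty acids and furans, was at 142 to 698 CPM in lung and 5.67 to 19 CPM in liver, with no overlap (-3.79 ± 0.35 (SE, adjusted p = 9.1e-11)). Cyp2b10, the mouse target of the receptor CAR, was at 109 to 377 CPM in lung and 0.225 to 76.5 CPM in liver, also apart (-2.07 ± 0.57 (SE, adjusted p = 0.00231)). Cyp2s1, an epithelial enzyme, was at 13.1 to 77.8 CPM in lung and at most 0.788 CPM in liver (-5.84 ± 0.43 (SE, adjusted p = 6.3e-13)). Cyp1b1 at 2.84 to 22 CPM (-3.61 ± 0.54 (SE, adjusted p = 1.0e-06)) and the leukocyte fatty acid hydroxylase Cyp4f18 at 3.55 to 41.4 CPM (-2.96 ± 0.63 (SE, adjusted p = 0.000156)) were higher in lung too, and Cyp4f16 at 5.33 to 11.6 CPM passed (-1.03 ± 0.42 (SE, adjusted p = 0.0339)); with the mouse as a block its adjusted p was 0.052, and without the liver of M00235, M00237, M00238 or M00245 it was 0.065, 0.059, 0.063 and 0.062. The lung of M00238 also had the highest values of several liver P450 genes among the lungs, such as Cyp2c29 at 12.4 CPM beside Alb at 256 CPM.

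The single kidney, from M00249, was rich in P450 RNA, at 4444.4 CPM in all, but with different members from liver. Cyp4b1 was at 1706 CPM, above every lung, and Cyp2j5 at 1151 CPM, above every normal liver. Cyp2e1 was at 346, Cyp2d12 at 212, Cyp2j13 at 140.0 and Cyp4a31 at 125 CPM. Both vitamin D hydroxylases of the kidney were found there: Cyp24a1, which degrades the hormone, at 99.4 CPM, and Cyp27b1, which makes it, at 8.82 CPM. In every other library Cyp24a1 was at or below 0.172 CPM and Cyp27b1 at or below 0.275 CPM. There is 1 kidney library, so no test was made.

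In spleen the leading members were Cyp1b1, which oxidises oestrogens and polycyclic hydrocarbons, at 14.6 to 45.9 CPM, and Cyp4f18 at 9.76 to 28.6 CPM. Both lay above all normal livers (liver minus spleen -5.41 ± 0.55 (SE, adjusted p = 1.1e-09) and -3.71 ± 0.65 (SE, adjusted p = 1.3e-05)). Cyp4f16, at 4.92 to 12.4 CPM, was also called higher in spleen (-1.26 ± 0.43 (SE, adjusted p = 0.0123)). Cyp11a1, which starts steroid hormone synthesis, was at 20.4 CPM in the spleen of M00247 and at 0.138 to 2.24 CPM in the other 5, and the lung of M00247 had 9.61 CPM.

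In muscle only Cyp2s1 was both called higher than in liver and above 5 CPM, at 14.4 to 26.7 CPM (-5.74 ± 0.43 (SE, adjusted p = 1.1e-12)). Cyp2f2 reached 20 to 185 CPM and Cyp26b1 13.3 to 68.4 CPM in the muscle libraries. The epithelial keratin Krt5 was at 388 to 1066 CPM in the same libraries, beside muscle creatine kinase Ckm at 1224 to 2554 CPM; the part of epithelial cells in the Cyp2s1 and Cyp2f2 levels was not tested. In brain, Cyp46a1, the cholesterol 24-hydroxylase of neurons, was at 62.9 and 48.9 CPM, against at most 4.58 CPM in liver (-3.96 ± 0.64 (SE, adjusted p = 4.2e-06)). Cyp4x1, at 8.96 and 12.3 CPM (-4.83 ± 0.79 (SE, adjusted p = 5.4e-06)), and Cyp2j9, at 18.3 and 18.9 CPM (-2.42 ± 0.62 (SE, adjusted p = 0.00151)), were also higher in brain. Cyp2j12 was at 4.74 and 5.19 CPM and had no reads in any normal liver.

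**Figure D5:**
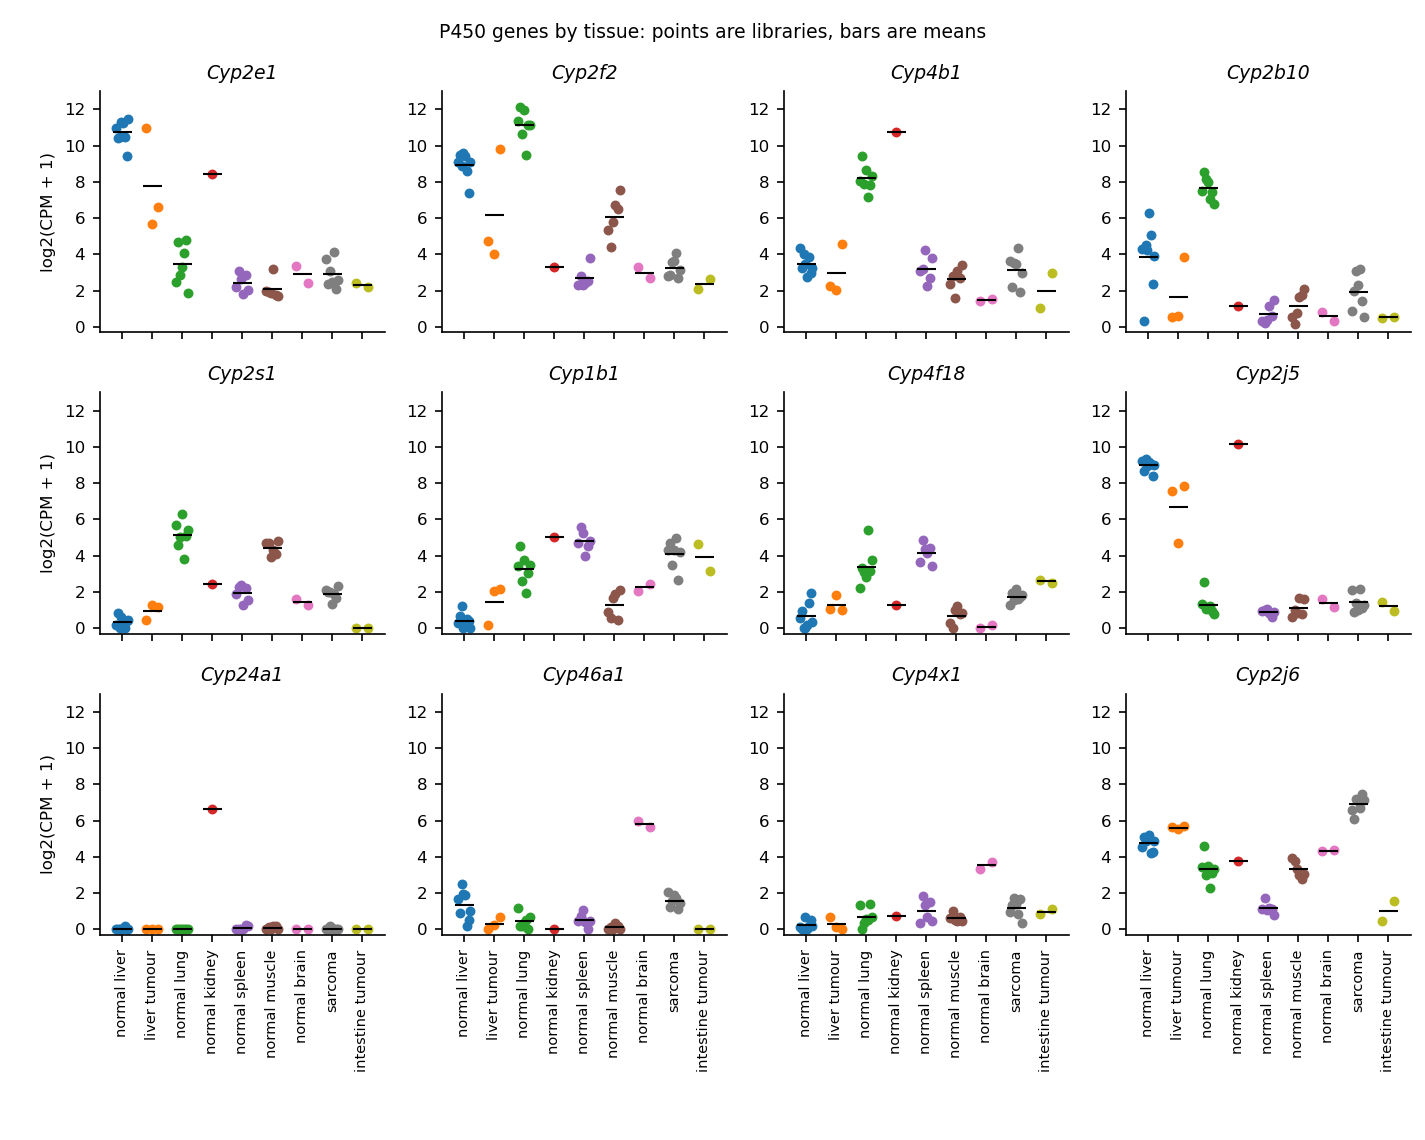
Levels, as log2(CPM + 1), of 12 P450 genes in the 9 tissue and tumour groups; each point is a library and each bar the mean of a group. Cyp2f2 is highest in lung, Cyp4b1 and Cyp2j5 in the kidney, Cyp1b1 and Cyp4f18 among the higher values in spleen, Cyp46a1 and Cyp4x1 in brain and Cyp2j6 in sarcoma.

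The sarcomas, given by values only, had little P450 RNA (281.6 to 603.1 CPM in all) and 5 leading members. Cyp2j6 was at a lowest value of 68.2, a median of 136 and a highest value of 179 CPM, above every normal liver, and Cyp2j9 at a lowest value of 31.8, a median of 48.2 and a highest value of 66.8 CPM. Cyp26b1 varied most, from 13.8 CPM in the sarcoma of M00248 to 174 CPM in that of M00237, with 112 and 118 CPM in the 2 sarcomas of M00245. Cyp20a1, an orphan member, was at 17.4 to 41.7 CPM and Cyp1b1 at 5.3 to 30.8 CPM. The 2 intestine tumour libraries, both from M00247, held 125.5 and 127.7 CPM in all, close to the 127.3 CPM of the spleen of the same mouse, and were led by Cyp4v3 (24.8 and 31.5 CPM) and Cyp1b1 (24.3 and 7.77 CPM). The 7 intestinal epithelium markers summed to 1.33 and 1.41 CPM in these libraries and the 7 lymphocyte markers to 1100 and 1400 CPM, so markers of gut epithelium, the known site of intestinal P450 enzymes, were close to 0 in them.

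Several members are close copies whose 3′ ends cannot always be told apart. Of the 99 genes, 32 shared more than 10% of the 50-base words of their last 500 annotated bases with another gene, and 48 shared none. Cyp3a41a and Cyp3a41b were identical over that stretch, so the reads listed under Cyp3a41a belong to the pair. Cyp4a12a and Cyp4a12b shared 37%, Cyp2c67 and Cyp2c68 51.2% each, mostly with Cyp2c40, and Cyp2a4 44.3%, mostly with Cyp2a5. Cyp2c40 shared 62.4% and Cyp2c69 38.4%, both mostly with Cyp2c67. Values of these copies are therefore uncertain one by one. Among the other genes called between tumour and normal liver, Cyp2c54 shared 27.1%.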

How the data were processed

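The 42 tissue libraries were analysed; the fibroblast libraries of the series were not used here. The deposited table holds expected counts per gene, made by the authors from 3′ end libraries (QuantSeq kit, per the labels' protocols). The sources used here name no aligner, counter or genome build. Of the values, 8.35% were not whole; all were rounded before testing, which changed the total by 0.00054%, and the tests planned for counts were kept. CPM are counts per 1000000 gene counts of a library. Every pair of libraries within a group differed by more than counting noise. The liver library of M00249 counts as a tumour because its group label says so, while its title names only liver. Separate libraries of a group come from separate mice, except for the sarcomas of M00245 and the intestine tumours of M00247. The sarcoma counts of M00245 were summed to rank members by group mean. Intestine tumour members were ranked by the median of the 2 libraries. Both pairs were summed by mouse in the fit of all tissue groups.

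Genes passed edgeR's filter on low counts (minimum count 10). Comparisons used edgeR 4.0.16 in R 4.3.3 with TMM scaling, the two-sided quasi-likelihood test with p-values adjusted by Benjamini-Hochberg over every gene tested; liver tumours were fitted with normal livers, and the normal tissues together. Standard errors are the fitted log2 difference divided by the square root of F. M00236 and M00248 gave both tumour and normal liver, so the mouse was also fitted as a block; the deviations of these same-mouse pairs from their group means correlated at -0.155 and -0.165. Other settings were DESeq2 1.42.0, other scalings and filters, mitochondrial genes left out, a covariate of Y-linked expression, fewer mice or other tissues in the fit, and libraries left out. Kidney, sarcoma and intestine tumour are given by values only. Promoters come from RefSeq and 3′ ends from GENCODE M21, which may not be the authors' annotation.

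Named by rule are Cyp8b1, Cyp2c29 and Cyp3a11, the 10 lowest and 10 highest called differences between tumour and normal liver with a mean of at least 5 CPM in the higher group, the 10 most abundant members in normal liver and the 5 in each other group, up to 8 called members higher in another tissue, and the members of bile acid, retinoid, vitamin D and steroid metabolism. Members named outside it, such as those that differ between normal livers or between single tumours, were chosen after their values were seen. The members and gene lists were chosen with earlier results of these data known. The floor of 3 counts covers counting error only.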

Additional observations from a re-analysis of the deposited data

Results flagged for a closer look

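Outlying libraries were looked for in 37 sets of libraries of 1 group and 1 P450 gene. These were the most abundant members of normal liver, lung, spleen, muscle and sarcoma. In normal liver, Cyp3a11 and the genes called in the tumours were included too. Other sets given in the text, such as Cyp3a41a and Cyp2a4 in normal liver and Cyp11a1 in spleen, were not examined. Of the 37 sets, 2 held a library whose gap to the nearest other library was large for the range of the group (Dixon's 95% value). Chance alone flags about 1 in 20 such sets. Cyp4v3, a fatty acid hydroxylase, was at 112 CPM in the lung of M00238 and at 23.4 to 40.4 CPM in the other 6 lungs. Cyp2d12 was at 1.76 CPM in the normal liver of M00246 and at 0.124 to 0.573 CPM in the other 7, close to the floor of 3 counts.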

How the results depend on the processing

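The number of P450 genes lower in liver tumour, 6, became 13 with DESeq2, 0 with the mouse as a replicate block, 15 with all tissue groups in one fit, 1 with the mice M00245 to M00249 only, 10 without the normal livers of M00246 and M00247 (chosen after seeing the data), and 4 to 10 when single libraries were left out. The number higher, 2, became 1 with a minimum mean of 5 CPM, 0 with the block, 8 in the fit of all tissue groups, 0 with the mice M00245 to M00249 only, and 1 to 3 when single libraries were left out. The shares of all genes called under these other settings are not given here, except for the block, where no gene passed. These counts therefore cannot be set against a background. With the block the estimate for Cyp3a11 reversed to -0.34. The genes lower in liver numbered 3 against spleen, 2 against muscle and 2 against brain with a minimum mean of 5 CPM, 1 against muscle when only those tissues were fitted, and 4 to 7 against brain when single libraries were left out. For M00249, 7 genes lay above all normal livers after TMM scaling. The block ended the calls of all 8 genes between tumour and normal liver (adjusted p 0.12 for Cyp8b1 to 0.75 for Cyp2c29) and that of Cyp4f16 against lung, and changed no other call among the genes recomputed. Scaling by library totals alone was added after seeing the data; it gave 5 genes lower and 3 higher in tumour. Over all other settings, each left-out library being 1 setting, Cyp2c54 and Cyp27a1 each lost their call in 12 and kept it in 10. Cyp4a31 lost its call in 11 and kept it in 10. Depth limits members under the floor of 3 counts.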
